A study of Mus musculus with 6 samples.

Results

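Chromosome 3 genes were compared between S49 Neo, the parental line, from a T cell lymphoma of the mouse and cultured in suspension, and MR 4-25, a line derived from it that the labels call mannitol recovered. A gene was taken when its probe lies on chromosome 3 in the array's annotation (build mm7) and was well above background on all 6 arrays. Genes whose name in the files begins with S100 or Gbp were left out, and the brightest probe that passed stood for each gene. This gave 682 genes, chosen by position and detection, out of 691 chromosome 3 genes detected on all arrays, 1362 chromosome 3 genes on the array and 15331 genes of all chromosomes that met the same detection rule. Membership did not use the difference between the lines, but the chromosome was chosen with that difference known, so the chromosome-wide values are a description with no test.

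Each line was measured in 3 samples, with 1 Cy3 array per sample. All 6 cultures were untreated and kept in the same medium, so MR 4-25 was not under mannitol when RNA was taken. Each group is 1 cell line and the labels do not say whether its samples came from separate cultures, so p-values cover the spread among these arrays alone and that spread may be technical. Neo 1, Neo 2, MR 4-25 1 and MR 4-25 2 shared slide 1, and Neo 3 and MR 4-25 3 shared slide 2.

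MR 4-25 3 stood apart as a dim array. Its 75th percentile of signal was 521 intensity units against 844 to 988 on the other 5 arrays, and 61.3% of its probes were well above background against 69.9% to 76.2%. The 9 T lineage markers on the array were well above background on all 6 arrays. The log2 of their summed signals was 8.06 to 8.27 on Neo and 7.93 to 8.08 on MR 4-25, and the other lists were summed alike. Of 6 myeloid markers 5 were detected on every array and Csf3r on none, and the list summed to -0.96 to -0.01 on Neo and -0.33 to 0.09 on MR 4-25. B lineage markers summed to -0.55 to -0.37 on Neo and -0.40 to 0.24 on MR 4-25, and stromal markers to -0.66 to 0.18 and -0.15 to 0.52. Detected on all arrays were 3 of 6 B lineage, 4 of 5 stromal and 2 of 4 erythroid markers, and the erythroid list summed to -1.16 to 0.11 on Neo and -0.23 to 0.31 on MR 4-25. The part of these lists in the differences below was not tested. In bulk RNA a change in the share of cells that express a gene and a change in its RNA per cell cannot be told apart.

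Mouse chromosome 3 carries several clusters of related genes as well as many unrelated housekeeping genes. The fatty acid binding protein genes lie near its proximal end. The epidermal differentiation complex holds genes of the cornified envelope of skin, and the glutathione S-transferase mu cluster and a group of histone genes lie farther along. Genes for lymphocyte surface proteins and signalling proteins, among them Cd2, Cd53, Bcl10 and Nras, are spread between them. Neighbouring genes need not be active in the same cells.

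RefSeq promoters (GRCm38.p6) were matched by symbol for 457 of the 682 genes. The 250 bases before the start are printed for 4 genes that the results turn on: the related genes Selenbp1 and Selenbp2, which lie within 1 Mb of each other with other genes between them and differed between the lines by nearly the same amount, Wwtr1, with the largest positive difference past the test, and Slc7a11, the cystine transporter gene. Capitals mark a match to one of the 5 motifs searched. Probe positions given further on are on build mm7 and do not compare with these.
Selenbp1, chr3:94932833-94933082, plus strand: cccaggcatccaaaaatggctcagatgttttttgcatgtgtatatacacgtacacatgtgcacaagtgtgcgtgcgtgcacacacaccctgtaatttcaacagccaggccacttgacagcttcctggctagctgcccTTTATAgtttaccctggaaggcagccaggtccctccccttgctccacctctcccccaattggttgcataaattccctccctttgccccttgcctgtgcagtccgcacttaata
Selenbp2, chr3:94693323-94693572, plus strand: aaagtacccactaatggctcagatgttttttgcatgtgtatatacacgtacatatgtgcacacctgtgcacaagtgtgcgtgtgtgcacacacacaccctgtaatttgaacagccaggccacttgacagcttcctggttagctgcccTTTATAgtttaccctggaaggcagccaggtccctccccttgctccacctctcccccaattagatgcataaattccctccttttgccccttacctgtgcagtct
Wwtr1, chr3:57575911-57576160, minus strand: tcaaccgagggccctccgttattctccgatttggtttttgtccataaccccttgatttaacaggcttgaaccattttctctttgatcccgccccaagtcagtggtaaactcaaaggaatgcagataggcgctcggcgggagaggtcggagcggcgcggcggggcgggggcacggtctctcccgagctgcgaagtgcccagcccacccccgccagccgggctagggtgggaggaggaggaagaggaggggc
Slc7a11, chr3:50443614-50443863, minus strand: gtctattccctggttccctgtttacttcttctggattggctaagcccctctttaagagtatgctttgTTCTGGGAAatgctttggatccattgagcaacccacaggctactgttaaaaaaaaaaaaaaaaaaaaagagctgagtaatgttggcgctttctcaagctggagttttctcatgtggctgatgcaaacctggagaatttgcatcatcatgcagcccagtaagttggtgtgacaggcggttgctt

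A global alignment of the Selenbp1 and Selenbp2 promoters had 225 identical positions, 13 mismatches and 24 gap positions, so they are near copies of one another. The capitals in both are TATAAA read on the opposite strand, those in Slc7a11 are the interferon-gamma-activated site TTCNNNGAA, and none of the motifs occurred in the Wwtr1 window. Both strands were searched, and no motif letters overlapped in these windows. TTCNNNGAA was in 5.47% of the 457 promoters and in 7.18% of 27025 mouse promoters of the same length. The core of the tonicity element, TGGAAA, was in 17.3% and 18.7%, the cyclic AMP element TGACGTCA in 2.63% and 1.62%, TATAAA in 10.5% and 13%, and the interferon-stimulated response element in 2.41% and 3.04%. These are matches of letters and say nothing of binding.

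Chromosome 3 genes were shifted upward in MR 4-25 as a group. Levels are log2 signals relative to the 75th percentile of each array, and differences are MR 4-25 minus Neo on that scale. The median difference of the 682 genes was 0.31, a 1.24-fold higher level, against 0.04 over all 15331 genes tested and 0.02 over the 14649 other genes. The shift ran through the distribution. The lower quartile of the chromosome 3 genes was 0.02 and the upper quartile 0.56, against -0.28 and 0.36 over all genes. Positive differences were found for 517 of the 682 genes, or 75.8%, against 53% of all genes.

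On each array the median of the chromosome 3 genes, as the deviation from each gene's mean over the 6 arrays, was set against the same median of all genes. It was -0.16, -0.17 and -0.14 on Neo 1 to 3 and 0.12, 0.12 and 0.20 on MR 4-25 1 to 3. The lines did not overlap, and the gap was positive in 9 of 9 pairs of an MR 4-25 with a Neo array, at 0.19 to 0.39. Within slide 1 the median difference was 0.21 against -0.01 over all genes, and within slide 2 it was 0.46 against 0.12. The excess over all genes was thus present on both slides and larger on the slide that held the dim array.

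**Figure D1:**
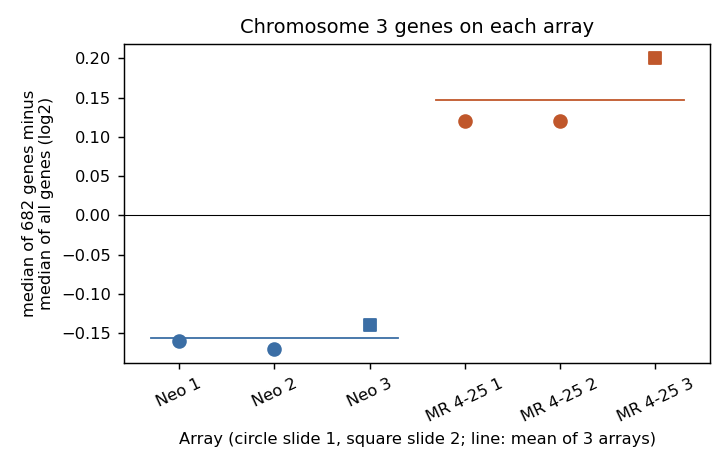
Median log2 deviation of the 682 chromosome 3 genes minus that of all genes tested on each array (points; circles slide 1, squares slide 2), with the mean of each line's 3 arrays as a line. The Neo arrays lie at -0.17 to -0.14 and the MR 4-25 arrays at 0.12 to 0.20.

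The chromosome 3 median was the highest of 20 chromosomes. The medians of the other 19 ran from -0.18, on chromosome 10 with 713 genes, to 0.11 on chromosome 7. Their shares of positive differences were 38.1% to 58.6%, all below the 75.8% of the chromosome 3 genes. Chromosome 10 stood at the other end, with 38.1%. Within slide 1 the other chromosomes' medians were -0.17 to 0.02 and within slide 2 they were -0.16 to 0.26, below the chromosome 3 values on the same slide. Chromosome 3 also ranked first under each of the 20 alternative settings run.

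**Figure D2:**
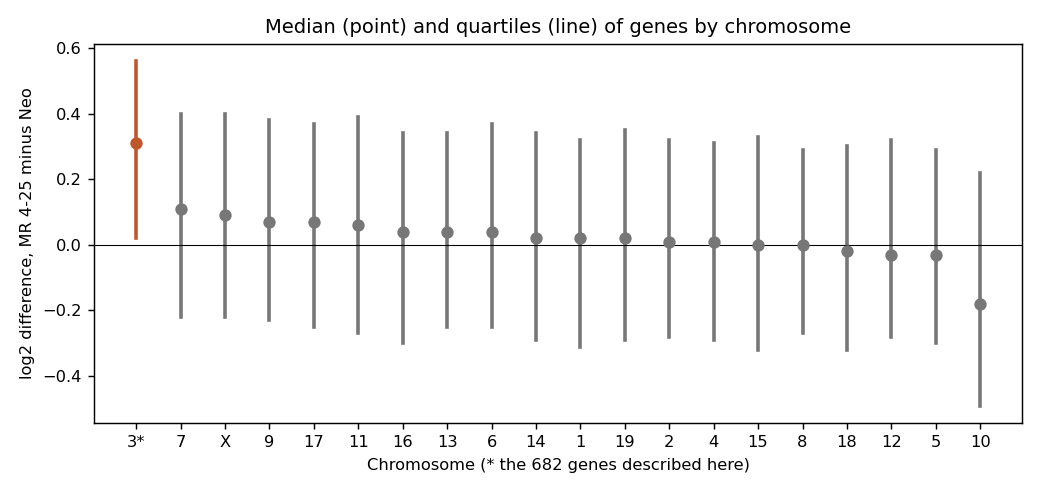
Median (point) and lower and upper quartile (line) of the log2 difference, MR 4-25 minus Neo, for the genes of each chromosome, in order of the median. Chromosome 3 (orange) has a median of 0.31 and the next, chromosome 7, 0.11.

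The excess depended on the level of expression. All genes were divided into 3 classes of equal size by their mean level over the 6 arrays. In the bright class the 241 chromosome 3 genes had a median of 0.32 against -0.05 for other genes, and 80.9% of them were positive against 44.1%. The 217 genes of the middle class had 0.33 against -0.02. In the dim class the 224 chromosome 3 genes had 0.28, but other dim genes had 0.21, so the gap was 0.06 there against 0.35 and 0.37 in the middle and bright classes. The other dim genes were shifted mainly on slide 2, which held 1 array per line, at 0.65 against 0.02 on slide 1, and the chromosome 3 genes of that class had 0.71 and 0.05. In the bright class the chromosome 3 medians were 0.31 on slide 1 and 0.41 on slide 2. The 548 protein-coding genes had a median of 0.33, and genes of the plus and minus strands had 0.32 and 0.30.

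**Figure D3:**
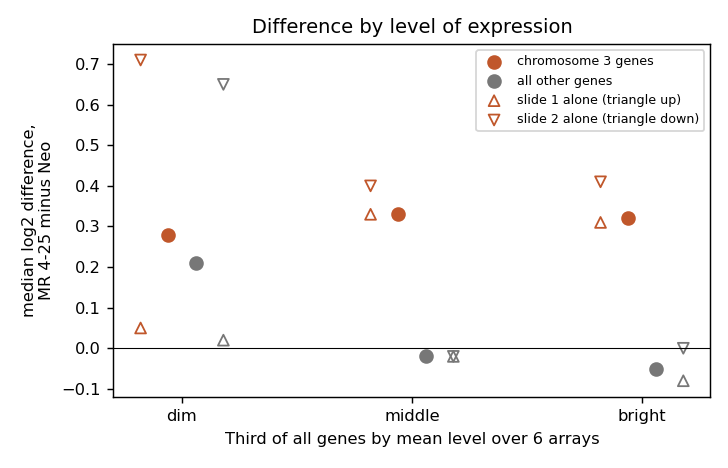
Median log2 difference, MR 4-25 minus Neo, by class of mean level over the 6 arrays, for chromosome 3 genes (orange) and all other genes (grey); filled points use all arrays, open triangles 1 slide. The gap is 0.35 and 0.37 in the middle and bright classes and 0.06 in the dim class, where both sets are high on slide 2.

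Along the chromosome the shift was broad rather than tied to 1 place. The genes run from 3.66 Mb to 160 Mb and fill 16 windows of 10 Mb, of which 11 hold at least 20 genes. All 11 had a median above that of all genes, with the highest at 0.50 between 50 and 60 Mb and the lowest at 0.15 between 150 and 160 Mb. Of 215 such windows on the other chromosomes, with medians of -0.34 to 0.36, 23 (10.7%) lay above the lowest chromosome 3 window. The running median of 41 neighbouring genes was above 0 at each of its 642 positions. It was highest, at 0.52, between Cog6 and Tiparp (53.1 to 65.7 Mb), where 37 of 41 genes were positive. It was lowest, at 0.11, between Tent5c and AK046358 (100 to 106 Mb), where 25 of 41 were positive. Neighbouring genes were little alike. The Spearman correlation between a gene and the next was 0.10 over 681 pairs, within the -0.01 to 0.15 of the other chromosomes, whose points share the same arrays.

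**Figure D4:**
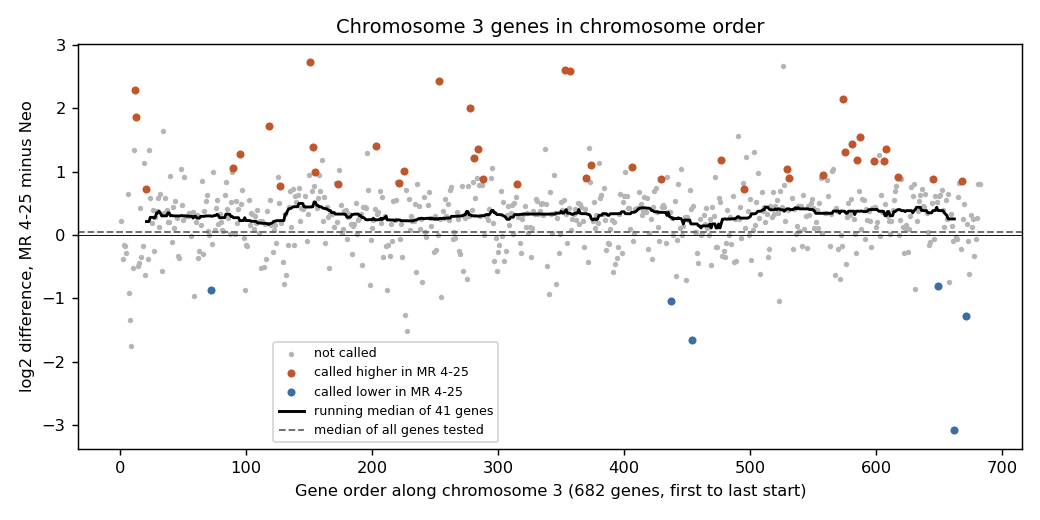
Log2 difference, MR 4-25 minus Neo, of each of the 682 chromosome 3 genes in their order along the chromosome, with genes past the limma test in colour and the running median of 41 genes as a black line. The black line stays between 0.11 and 0.52, while the first genes on the left lie mostly below 0.

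At the proximal end most differences were negative. Before 10 Mb lay 9 genes, which is a thinly filled window, with a median of -0.28, and only 2 of them, Hnf4g at 0.22 and Tpd52 at 0.64, were positive. Of the other 7, Zfp704, BI697602 and Pag1 lie next to each other near 9 Mb and were lower on every MR 4-25 array than on any Neo array. Pag1, which encodes a membrane adaptor that brings the kinase Csk to lipid rafts in T cells, had levels of 0.31, 0.40 and 1.50 on Neo 1 to 3 and -0.82, -0.98 and -1.27 on MR 4-25 1 to 3. Its difference was -1.76 ± 0.35 (SE of the fit, n = 3 per line, as for all values after ± below), and it missed the test (limma, adjusted p = 0.0636). Zfp704, a zinc finger gene, differed by -0.92 ± 0.22 (adjusted p = 0.0917 by limma), and the transcript BI697602 by -1.34 ± 0.48 (adjusted p = 0.205 by limma). Second probes of Pag1 and Zfp704, also detected on all arrays, gave -0.90 and -1.20. The fatty acid binding protein genes begin just beyond, and there Fabp5 differed by -0.53 while its neighbours Fabp9, Fabp4 and Fabp12 differed by 1.33, 2.28 and 1.87.

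Single genes were tested with limma across all 15331 genes, with adjusted p under 0.05 as the threshold. Of the 682 chromosome 3 genes, 42 (6.16%) were called higher in MR 4-25, where 1.88% of all genes tested were, and 6 (0.88%) were called lower, against 1.55%. Levels of all 3 MR 4-25 arrays lay above all 3 Neo arrays for 239 genes, or 35%, against 14.8% of all genes, and below them for 33 genes, or 4.84%, against 15.6%. At an unadjusted p under 0.05, 181 genes (26.5%) were higher and 23 (3.37%) lower, against 9.4% and 10.6% of all genes, which are also the shares behind the unadjusted counts given below for windows and lists. The remaining 634 genes did not pass the test, and their median difference was 0.29. All 42 genes called higher were positive on both slides, and all 6 called lower were negative on both. The calls used these same arrays, so this is no separate check.

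The number of calls depended on single arrays and on the fit. Without Neo 1 a single gene was called higher, or 0.147% against 0.346% of all genes, so the excess of higher calls was absent from that fit. Without Neo 2 there were 5 (0.733% against 0.352%) and without Neo 3 there were 7 (1.03% against 0.515%). Without MR 4-25 1 there were 5 (0.733% against 0.417%), without MR 4-25 2 there were 7 (1.03% against 0.594%) and without MR 4-25 3 there were 24 (3.52% against 1.26%). Genes called lower numbered 0 to 4 in these fits (limma), or 0% to 0.587% against 0.254% to 1.17% of all genes. In the 4 fits with 0 genes called lower, 14 to 16 were lower at an unadjusted p under 0.05. With the slide as a block 63 (9.24% against 3.18% of all genes) were called higher and 9 (1.32% against 2.6%) lower. With the replicate number as a block these were 18 (2.64% against 1.09%) and 3 (0.44% against 0.75%). Within slide 1 alone they were 22 (3.23% against 1.51%) and 7 (1.03% against 1.25%). All the calls kept their side with the slide block, and the replicate block lost 26 of the 42 and 3 of the 6.

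The 10 largest positive differences past the test belonged to genes of varied function. Wwtr1, on build mm7 with its probe at chr3:57586143-57589610, encodes TAZ, a transcriptional coactivator of the Hippo pathway. Its levels were -5.32, -5.51 and -4.67 on Neo 1 to 3 and -2.30, -2.54 and -2.49 on MR 4-25 1 to 3. The 3 MR 4-25 arrays lay close together and far above Neo, and the difference was 2.72 ± 0.25, or 6.59-fold (limma, adjusted p = 0.00729). A second Wwtr1 probe, detected on 4 arrays, differed by 0.83. Thbs3 (chr3:89353009-89353068) encodes a thrombospondin, a secreted matrix protein. Its levels were -2.95, -3.12 and -2.55 on Neo 1 to 3 and -1.24, -0.70 and -0.65 on MR 4-25 1 to 3, without overlap, and it rose by 2.01 ± 0.24 (adjusted p = 0.0159 by limma).

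Selenbp1 (chr3:94818647-94818706) and Selenbp2 (chr3:94578289-94578348), whose promoters are printed above, encode selenium-binding proteins. Selenbp1 levels were -3.10, -1.73 and -2.75 on Neo 1 to 3 and -0.30, 0.45 and 0.02 on MR 4-25 1 to 3. Selenbp2 levels were -3.45, -2.09 and -2.37 on Neo 1 to 3 and -0.50, 0.54 and -0.13 on MR 4-25 1 to 3. Both were higher on every MR 4-25 array, with the lowest Neo value on Neo 1. Selenbp1 rose by 2.59 ± 0.40 (adjusted p = 0.0328) and Selenbp2 by 2.61 ± 0.44 (adjusted p = 0.0418), both by limma. Their 2 probes align over a stretch with 51 identical bases and 3 mismatches, of 60 bases each, so either probe may bind both transcripts and the genes cannot be told apart with certainty.

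Lmna (chr3:88597011-88597070) encodes lamins A and C of the nuclear envelope. Its levels were 3.35, 3.14 and 3.46 on Neo 1 to 3 and 5.64, 5.10 and 6.49 on MR 4-25 1 to 3. MR 4-25 3 was the highest, and the gene rose by 2.43 ± 0.36 (limma, adjusted p = 0.0301). Its other 2 probes on all arrays gave 2.65 and 2.58, so the probes were alike. Mcub (chr3:129765813-129772985) encodes an inhibitory subunit of the mitochondrial calcium uniporter. Its levels were 0.57, 0.42 and 0.31 on Neo 1 to 3 and 1.98, 2.05 and 1.89 on MR 4-25 1 to 3, and the spread within each line was small. It rose by 1.54 ± 0.13 (limma, adjusted p = 0.00622).

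The fatty acid binding proteins carry lipids inside cells, and Fabp4 is best known from adipocytes and macrophages. Fabp4 (chr3:10212636-10212696) had levels of 5.67, 5.82 and 5.11 on Neo 1 to 3 and 7.90, 7.97 and 7.57 on MR 4-25 1 to 3. It rose by 2.28 ± 0.24 (limma, adjusted p = 0.011), and its other probes on all arrays gave 2.81 and 2.45. Fabp12 (chr3:10254155-10254214) had levels of -1.60, -1.35 and -1.98 on Neo 1 to 3 and 0.22, 0.34 and 0.11 on MR 4-25 1 to 3. It rose by 1.87 ± 0.20 (limma, adjusted p = 0.0117). Neither gene's groups overlapped. Fabp9, between Fabp5 and Fabp4 on the chromosome, did not pass the test.

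Ugt8a (chr3:125703915-125703974) encodes the enzyme that makes galactosylceramide. Its levels were -2.27, -1.82 and -2.34 on Neo 1 to 3 and -0.17, 0.13 and 0.04 on MR 4-25 1 to 3. It rose by 2.14 ± 0.19 (limma, adjusted p = 0.00669), whereas a second probe detected on all arrays gave 0.75, so the size differed between probes. Slc7a11 (chr3:50490342-50490401) encodes the cystine/glutamate exchanger subunit that supplies cystine for glutathione synthesis. Its levels were -1.29, -1.86 and -1.49 on Neo 1 to 3 and 0.40, -0.12 and 0.24 on MR 4-25 1 to 3. It rose by 1.72 ± 0.22 (limma, adjusted p = 0.02), and its other probes on all arrays gave 2.25 and 1.64.

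**Figure D5:**
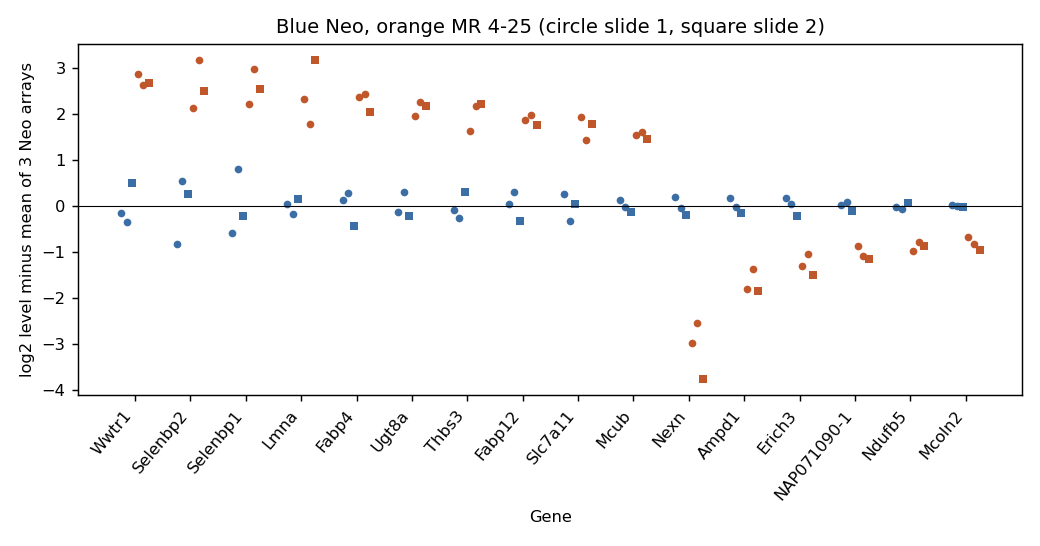
Log2 level on each array minus the mean of the 3 Neo arrays for the 10 largest rises and the 6 falls past the limma test (blue Neo, orange MR 4-25; circles slide 1, squares slide 2). The 3 MR 4-25 arrays of each gene lie on 1 side of its 3 Neo arrays, with Nexn the farthest below.

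Of the 6 genes called lower, Nexn (chr3:152138251-152138310), which encodes the actin-binding protein nexilin, had the largest fall. Its levels were -0.19, -0.44 and -0.58 on Neo 1 to 3 and -3.38, -2.93 and -4.16 on MR 4-25 1 to 3. It fell by 3.08 ± 0.33 on the log2 scale, or 8.47-fold (limma, adjusted p = 0.0124). A second Nexn probe was detected on 1 array only and is no check. Ampd1 (chr3:102892834-102892893) encodes the AMP deaminase of muscle. Its levels were -2.05, -2.23 and -2.37 on Neo 1 to 3 and -4.01, -3.58 and -4.05 on MR 4-25 1 to 3. The lines were separate, and the difference was -1.66 ± 0.19 (limma, adjusted p = 0.0129). Erich3, a gene for a glutamate-rich protein, differed by -1.28 ± 0.19 with no overlap (limma, adjusted p = 0.0278). Nexn and Erich3 are the 2 genes called lower between 150 and 160 Mb, the window of the lowest median, where Rabggtb, a subunit of the enzyme that prenylates Rab proteins, rose by 0.85 ± 0.12 (adjusted p = 0.0278 by limma, 0.0868 with the replicate block).

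Ndufb5, which encodes a subunit of respiratory complex I, had levels of 2.14, 2.10 and 2.23 on Neo 1 to 3 and 1.19, 1.39 and 1.30 on MR 4-25 1 to 3. It fell by 0.86 ± 0.13 (limma, adjusted p = 0.0285, 0.0862 with the replicate block). Mcoln2, which encodes an endolysosomal cation channel of lymphocytes, differed by -0.81 ± 0.13 (adjusted p = 0.0359 by limma, 0.091 with the replicate block), and the array transcript NAP071090-1 by -1.03 ± 0.14 (adjusted p = 0.0243 by limma, 0.0648 with the replicate block). Gpr160, an orphan receptor gene, was lower on every MR 4-25 array at -0.96 ± 0.25 but missed the test (limma, adjusted p = 0.111).

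In the window of the highest median, between 50 and 60 Mb, 5 of 43 genes were called higher and none lower, with 20 and 0 at an unadjusted p under 0.05 (limma). Besides Wwtr1 and Slc7a11 these were Rnf13, a membrane ubiquitin ligase gene, at 1.38 ± 0.16 (limma, adjusted p = 0.0131), Serp1, which protects newly made membrane proteins in the endoplasmic reticulum, at 1.00 ± 0.15 (limma, adjusted p = 0.0306, 0.0652 with the replicate block), and Mgst2, a microsomal glutathione S-transferase gene, at 0.78 ± 0.14 (limma, adjusted p = 0.0483, 0.112 with the replicate block). Rnf13 levels were -0.51, -0.39 and -0.67 on Neo 1 to 3 and 0.84, 1.05 and 0.69 on MR 4-25 1 to 3, with no overlap, and its other probes gave 1.24 and 0.89.

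Lists by function are read beside all 682 chromosome 3 genes, with a median of 0.31 and 75.8% positive. Of these, 6.16% were called higher and 0.88% lower, against 1.88% and 1.55% of all genes tested. The 10 measured genes of glutathione and sulfur metabolism (12 on the array) had a median of 0.42. It was 0.31 on slide 1 and 0.89 on slide 2. Slc7a11 and Papss1, which makes the sulfate donor PAPS, were called higher and no gene lower, with 4 and 0 at an unadjusted p under 0.05 (limma). Papss1 levels were 2.10, 2.04 and 1.72 on Neo 1 to 3 and 2.97, 3.17 and 3.21 on MR 4-25 1 to 3, and it rose by 1.16 ± 0.16 (limma, adjusted p = 0.0245, 0.0746 with the replicate block). Of the genes that missed the test, Gclm, the modifier subunit of glutamate-cysteine ligase, differed by 0.86. The transferases Gstm6, Gstm2, Gstm3 and Gstm1 differed by 0.67, 0.44, 0.37 and 0.21, while Gstm7 differed by -0.62. These transferase differences rested mainly on slide 2, which held the dim array. In the same order they were 0.28, -0.03, 0.14, -0.15 and -0.10 on slide 1. On slide 2 they were 1.45, 1.38, 0.85, 0.93 and -1.67. The Gstm genes are close copies, and their probes may detect one another.

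The 20 measured genes of lipid, sugar and amino acid metabolism had a median of 0.32. Called were 2 higher and 1 lower, and 17 (85%) were positive, against 75.8% of the 682 chromosome 3 genes. Ugt8a and Ampd1 were the largest in each direction, and Bdh2, a hydroxybutyrate dehydrogenase gene, rose by 1.35 (limma, adjusted p = 0.0205, 0.0419 with the replicate block). Fdps and Pmvk, enzymes of the mevalonate pathway, differed by 0.77 and 1.05 and missed the test. Of 12 solute carriers, with a median of 0.42, only Slc7a11 was called. Slc6a17, an amino acid transporter of synaptic vesicles, differed by 1.31 ± 0.78 (limma, adjusted p = 0.412), but this rested on a low value of -5.13 on Neo 1 and its other probe on all arrays gave -0.34. Of 11 ion channel and pump genes, with a median of 0.14, none was called higher (2 at an unadjusted p under 0.05 by limma) and Mcoln2 was called lower. Atp11b, a lipid flippase gene, differed by 0.83 ± 0.15 (limma, adjusted p = 0.0519).

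The 27 measured genes of lymphocyte signalling had a median of 0.32, near the 0.31 of all 682 chromosome 3 genes. Called were 3 higher and none lower, and 23 (85.2%) were positive, against 75.8% of the 682. At an unadjusted p under 0.05 by limma, 12 were higher and 2 lower. Camk2d, a calcium/calmodulin-dependent kinase gene, had levels of 1.70, 1.70 and 1.88 on Neo 1 to 3 and 3.18, 2.87 and 3.14 on MR 4-25 1 to 3. It rose by 1.30 ± 0.15 (limma, adjusted p = 0.013), and its other 3 probes on all arrays gave 1.52, 0.99 and 0.58. Bcl10, which links antigen receptors to NF-kappa-B, had levels of 2.86, 2.76 and 2.63 on Neo 1 to 3 and 3.54, 3.63 and 3.70 on MR 4-25 1 to 3. It rose by 0.88 ± 0.13 (limma, adjusted p = 0.0301, 0.0918 with the replicate block), and a second probe gave 0.61. Arhgef11, a guanine nucleotide exchange factor gene, was the third gene called higher, at 1.01 (limma, adjusted p = 0.0345, 0.065 with the replicate block). Sh2d2a, a T cell adaptor gene, differed by -1.52 ± 0.56 and missed the test (limma, adjusted p = 0.214), with overlapping lines. Nras differed by 0.71 and Ptpn22, a phosphatase that damps T cell receptor signalling, by 0.17.

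The 10 measured lymphocyte receptors and ligands had a median of 0.55, but this was -0.02 on slide 1 and 1.10 on slide 2. Cd53, a leukocyte tetraspanin, differed by 1.23 ± 0.61 and Cd2, an adhesion receptor of T cells, by 1.04 ± 0.27, and both missed the test (limma, adjusted p = 0.332 and 0.11). Cd2 was higher on all 3 MR 4-25 arrays, while Cd53 levels overlapped. Cd1d1, which presents lipids to T cells, was the only member called, at 0.82 (limma, adjusted p = 0.0488, 0.0973 with the replicate block). Its near copy Cd1d2 differed by 0.84 and the probes may detect both. Il2 differed by 0.41.

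The 15 measured genes listed under cell cycle and chromosome segregation had a median of 0.33, and 12 were positive. The 2 called higher were Ccna2 and the lamin gene Lmna, which is also counted with ephrins, cytoskeleton and adhesion. Ccna2, the cyclin of S phase and G2, had levels of 4.73, 4.62 and 4.60 on Neo 1 to 3 and 5.47, 5.97 and 5.66 on MR 4-25 1 to 3. It rose by 1.05 ± 0.17 (limma, adjusted p = 0.036, 0.089 with the replicate block). Cenpe, Ect2 and Plk4, which act in mitosis and centriole copying, differed by 0.49, 0.54 and 0.33 and missed the test. The 10 genes of apoptosis and survival had a median of 0.34, with 6 positive and only Bcl10 called. Siah2, a ubiquitin ligase gene, differed by 0.94 ± 0.20 without overlap (limma, adjusted p = 0.0751), Mcl1 by 0.23 and the death ligand gene Tnfsf10 by -0.34.

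Among 17 measured genes of ephrins, cytoskeleton and adhesion, with a median of 0.56, 4 were called higher and none lower, with 8 and 0 at an unadjusted p under 0.05 (limma). Besides Lmna these were Efna3, the gene of a membrane-anchored ephrin ligand, at 1.36 ± 0.19 (limma, adjusted p = 0.0247, 0.0582 with the replicate block), Wdr47 at 1.04 and Cnn3, a calponin gene, at 0.94. With the replicate block the limma adjusted p of Wdr47 was 0.0725 and that of Cnn3 0.0852. The related Efna4 differed by 0.78 and the cadherin gene Celsr2 by -1.03, and neither passed the test. The Celsr2 value rested on slide 2, at -2.99 there against -0.06 on slide 1. None of the 18 measured genes of the epidermal differentiation complex passed the limma test, nor did any at an unadjusted p under 0.05. Their median of 0.38 was 0.08 on slide 1 and 1.25 on slide 2, and Lce1c and Hrnr, the largest, differed by 1.36 ± 0.87 and 0.95 ± 0.45 (limma, adjusted p = 0.442 and 0.315).

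The 22 measured transcription factors and chromatin regulators had a median of 0.22, with 18 positive and 2 called higher. Tet2, which oxidises methylated cytosine in DNA, had levels of -3.99, -3.60 and -3.89 on Neo 1 to 3 and -2.53, -2.55 and -2.89 on MR 4-25 1 to 3. It rose by 1.17 ± 0.18 (limma, adjusted p = 0.0314, 0.0658 with the replicate block), while a second probe detected on 5 arrays gave 0.13. Zbtb7b, the factor that commits thymocytes to the CD4 lineage, rose by 0.89 ± 0.15 (limma, adjusted p = 0.0445, 0.0761 with the replicate block). Foxo1, Nfkb1 and Lef1 differed by 0.33, 0.22 and 0.22. All 6 measured histone genes were positive, at 0.10 to 0.99, and limma called none of them (1 at an unadjusted p under 0.05). Their median of 0.49 was 0.25 on slide 1 and 0.96 on slide 2. H2bc21 and H2ac18 differed by 0.99 ± 0.18 and 0.61 ± 0.27 (limma, adjusted p = 0.0522 and 0.287), and histone copies may share probes.

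Among 24 measured genes of translation, ribosome and proteasome, with a median of 0.41, 20 were positive and 1 was called higher. This was Ssr3, a subunit of the translocon-associated complex, with levels of 4.22, 4.36 and 4.45 on Neo 1 to 3 and 5.12, 5.05 and 5.28 on MR 4-25 1 to 3. It rose by 0.81 ± 0.14 (limma, adjusted p = 0.0421, 0.0905 with the replicate block), and its other probes gave 0.96 and 0.77. Among those that missed the test, Rps3a1, Rps27 and Rpl34, of the ribosome, differed by 0.53, 0.47 and 0.40, and the proteasome genes Psmd4, Psma5 and Psmb4 by 0.50, 0.45 and 0.42. Eif5a2, a translation factor gene, differed by 0.91 ± 0.53 and missed the test (adjusted p = 0.398 by limma). It was 0.05 within slide 1 and 2.64 within slide 2. The functional lists were compiled with earlier results of these data known, and the lists share some genes, so their counts are descriptions.

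The calls of the 28 genes past the test that the naming rule below chose depended on single arrays. Without Neo 1, only Mcub of the 28 was called (adjusted p = 0.0451 by limma). The number called was 5 without Neo 2, 6 without Neo 3, 3 without MR 4-25 1, 7 without MR 4-25 2 and 14 without MR 4-25 3. None was called in all 6 of these fits. None changed its sign, but none could, since the lines did not overlap for any of the 28. Within slide 1 alone 12 of the 28 missed the test, and with the replicate block 13 did. The Wwtr1 difference ranged from 2.55 to 2.97, that of Mcub from 1.48 to 1.61 and that of Nexn from -3.36 to -2.75 over these 6 fits. Background correction moved some of them more. With normexp Wwtr1 differed by 1.68, Ccna2 by 0.67 and Ssr3 by 0.53, while Nexn differed by -1.63, Ampd1 by -0.36, Erich3 by -0.38 and Mcoln2 by -0.51, and none of these 7 passed the limma test. With normexp and quantile normalization Wwtr1 differed by 1.08, Thbs3 by 1.29, Efna3 by 0.60 and Tet2 by 0.58, while Nexn differed by -2.02, Ampd1 by -0.88 and Erich3 by -0.82, and all 7 passed it. The other 20 genes called higher, among them Bdh2, Arhgef11, Cd1d1, Wdr47 and Cnn3, differed by 0.72 to 1.44. They were not followed singly through the fits that left an array out. The largest difference that missed the test, 2.66, was that of 1700013F07Rik (limma, adjusted p = 0.051), whose lines did not overlap.

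Just outside the detection rule, on chromosome 3, 124 genes were well above background on 5 of 6 arrays, and for 101 of them the missing array was MR 4-25 3, the dim one. Their median difference was -0.46, with 34 positive (27.4%). How far the missing array bears on that sign was not tested. Such genes of the other chromosomes, 2783 in number, had a median of -0.51 with 26.4% positive, and 80% of them missed MR 4-25 3. Of the 3 largest negative differences, 4930503B20Rik at -1.67 and Dnajc5b at -1.69 rested on MR 4-25 3, with -0.35 and -0.29 on slide 1. AI504432 had -4.24, with levels of -0.39, -0.58 and -0.21 on Neo 1 to 3 and -4.48, -4.38 and -5.05 on MR 4-25 1 to 3, and so was low on every MR 4-25 array. The largest positive ones, Gbp7 at 3.45, Synpo2 at 2.23 and Gucy1b1 at 1.95, all rested in part on a low value on Neo 1. Gbp7 encodes an interferon-induced GTPase, and its probe has another name in the files, so the rule on Gbp names did not meet it.

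Another 4 chromosome 3 genes were well above background on all arrays of 1 line and on none of the other, so they differ by their choice and are given with no test. Their folds are lower bounds, taken against the lowest signal well above background on each array where the gene was below it. Ifi44, an interferon-induced gene, was detected in MR 4-25 alone and was at least 7.52-fold higher there, with measured means of -7.23 on Neo and -3.57 on MR 4-25. Kcna3, the voltage-gated potassium channel Kv1.3 of T cells, was detected in Neo alone and was at least 3.56-fold lower in MR 4-25, with means of -4.05 and -7.07. Its probe at chr3:106855883-106855942 lies close to that of AI504432 at chr3:106871950-106872009, and both were low in MR 4-25. The transcript AK078585, near Zfp704 at the proximal end, was detected in Neo alone and was at least 1.71-fold lower in MR 4-25, with means of -5.25 and -6.78.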

How the data were processed

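Total RNA of 3 samples each of S49 Neo and MR 4-25 was labelled with Cy3 and hybridised to a 1-colour Agilent mouse array. The intensity values that the authors deposited are the scanner software's processed signals, background-corrected, and the software was Agilent Feature Extraction (9.5.3.1 in the file headers, 9.5 in the submitters' processing notes). The intensity values in the deposited series table equalled them for 260274 of 260274 values compared (relative tolerance 1e-06). Positions are those of the file annotation on build mm7.

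Outlier-flagged spots among the 43379 gene spots of each array were masked, control spots dropped and the spots of a probe averaged in log2, relative to the 75th percentile of the array. Genes were those with a probe well above background on all 6 arrays, and the brightest of such probes stood for the gene. Of 682 chromosome 3 genes, 566 were placed on chromosome 3 by RefSeq and 116 kept the file's name, and 170 of the 244 with several probes had them all of 1 sign.  The number of arrays limits the precision.

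MR 4-25 was set against Neo with lmFit and eBayes of limma (version 3.58.1, in R 4.3.3) and Benjamini-Hochberg adjustment over 15331 genes and a threshold of 0.05. The fit was tested on simulated data. Sequences were handled with Biopython 1.88. The members, gene lists, naming rule and alternatives were chosen with earlier results of these data known. Named were the 10 largest differences past the test each way (with falls filled to 10 by genes whose lines did not overlap), the 2 largest of each list, the called genes of the highest and lowest 10 Mb windows, and the genes just outside the detection rule. Other genes are named after their values were seen. Not every gene of the rule is reported here.

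Deviations from the line means of same-numbered samples correlated at 0.457, 0.264 and 0.604 over genes for numbers 1, 2 and 3, all above 0.1. The reported fit had no block, and pairing the samples by replicate number was run as an alternative. The pairing comes from the numbers in the labels, which do not say what a number shares. Number 3 coincides with slide 2. Deviations from a line mean balance out, so a slide effect also enters the correlations of numbers 1 and 2. Alternatives were other background corrections, scalings and filters, the mean over probes, the deposited table, array weights, a block for the slide or for the replicate number, the arrays of slide 1 alone and each array left out. A filter that ignores MR 4-25 3 and the brightest class alone were chosen after seeing the data.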

Additional observations from a re-analysis of the deposited data

How the results depend on the processing

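The direction of the chromosome 3 shift held under every alternative run, and all 43 genes that the naming rule chose from the 682 kept their sign. For those whose lines did not overlap, leaving arrays out could not change the sign. Of the windows with at least 20 genes, 10 of 11 had a median above that of all genes with normexp, and all had it under the other settings run. The median difference, 0.31 as reported, was 0.22 with normexp and quantile normalization, 0.26 with a filter on at least 3 of 6 arrays, 0.23 with array weights, 0.21 on slide 1 alone and 0.25 with the filter on the other 5 arrays without MR 4-25 3. The excess over all genes, 0.27 as reported, was 0.22 with normexp, 0.19 with normexp and quantile normalization, 0.20 with no filter, 0.21 with array weights, 0.22 on slide 1 alone and 0.22 with the filter on the other 5 arrays, and 0.25 to 0.33 with each array left out. In the bright class the chromosome 3 excess over all genes of the class was 0.36 and stayed at 0.34 to 0.37 under every setting run. Genes called higher, 42 as reported, numbered 8 with normexp (1.17% against 0.626% of all genes). With normexp and quantile normalization there were 78 (11.4% against 2.93%), and with median scaling 24 (3.52% against 1.24%). No filter gave 9 (0.67% against 0.332%), and the filter on at least 3 arrays 15 (1.55% against 0.673%). Array weights gave 119 (17.4% against 5.86%), the replicate block 18 (2.64% against 1.09%) and slide 1 alone 22 (3.23% against 1.51%). The filter on the other 5 arrays gave 19 (2.42% against 0.957%). Leaving out each array gave 1 to 24, with the shares stated above. Genes called lower, 6 as reported, numbered 0 with normexp (0% against 0.352% of all genes), with 11 at an unadjusted p under 0.05 (limma). No filter gave 2 (0.149% against 0.321%), array weights 14 (2.05% against 6.26%) and the replicate block 3 (0.44% against 0.75%). There were 0 to 4 with each array left out. The cause was not tested. The pairing by replicate number changed calls of named genes only where its adjusted p stands beside the reported one. Of the 28 genes past the test that the naming rule chose, normexp cost 23 their call, no filter 22, the filter on at least 3 arrays 17 and median scaling 9. On MR 4-25 3, 61.3% of probes were well above background, and how far low signal bears on the dim genes was not tested.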
